A study of Mus musculus with 2 samples.

Results

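The Schlafen genes are a family that in the mouse sits in one cluster on chromosome 11. The 7 members described here, Slfn1, Slfn2, Slfn4, Slfn5, Slfn8, Slfn9 and Slfn14, were taken by symbol from the 32286 features of 2 single-cell RNA libraries of bone marrow. They held 73866 of 119905786 unique molecular identifiers (UMIs, counted transcript molecules) in the kept control cells and 62148 of 102740700 in those of the other library. The control came from marrow of genotype Mx1Cre+/-;Rosa26+/+ and the other library, called the MYC library, from Mx1Cre+/-;Rosa26LSL-MYC/LSL-MYC. Both thus carried Mx1-Cre, a Cre recombinase under an interferon-inducible promoter, and only the second carried LSL-MYC, a transgene that stays silent until Cre cuts out a stop sequence. The agent and time of induction, the age of the mice and the number of animals pooled are not given in the sources used here. The series set out to compare marrow gene expression with and without forced MYC expression from the stem cell stage on. With 1 library per group there is no replicate and no test, and a difference of genotype cannot be told apart from a difference between 2 animals or preparations.

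Schlafen proteins are named for the German word for sleep, after a founding member that slowed thymocyte growth when overexpressed. The short members hold little more than the core Schlafen domain, while the long ones also carry a helicase-like part, and several members cleave transfer or ribosomal RNA. Many of the genes are known to respond to type I interferon in myeloid cells. Slfn2 is required for the quiescence and survival of T cells and monocytes, Slfn4 is known from myeloid cells, and Slfn14 is a ribosome-associated endonuclease whose human counterpart is mutated in an inherited platelet disorder.

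All 7 genes lie on chromosome 11 of GRCm38 between 82951349 and 83286726 in the GENCODE annotation. In order along it stand Slfn5 (plus strand), Slfn9 and Slfn8 (minus strand), Slfn2, Slfn1 and Slfn4 (plus strand), and Slfn14 (minus strand). Their longest coding sequences fall into a short group, with 337 codons in Slfn1 and 378 in Slfn2, an intermediate one, with 602 in Slfn4, and a long group of 884 in Slfn5, 899 in Slfn14 and 910 each in Slfn8 and Slfn9. Slfn8 and Slfn9 share 92.7% of their aligned coding bases, and Slfn4 shares as much, 92.7%, with its neighbour Slfn3. The 3′ ends, where this assay reads, differ more: 20.3% of the 60-base words in the annotated 500-base transcript ends of Slfn8, and 13.8% for Slfn9, also occur in another Schlafen gene, mostly the pseudogene Slfn10-ps, which is not among the features. How the counting treated such reads is not stated, so the split between Slfn8 and Slfn9 is less certain than the other values. None of the 3′-end words of Slfn1, Slfn2, Slfn4, Slfn5 or Slfn14 occurs in another of these genes.

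Promoter windows from 250 bases before to 50 after the RefSeq start were found for all 7 members. They were searched on both strands for the core of the interferon-stimulated response element, written here as 2 copies of GAAA with any 2 bases between them, which the factor complex downstream of the type I interferon receptor binds. The windows of Slfn5, Slfn9 and Slfn8 each hold the letters, and those of Slfn1, Slfn2, Slfn4 and Slfn14 do not have them in this stretch. Over all 27025 genes with a window, 1079 (3.99%) hold the letters, and 15 of 26 (57.7%) of a list of interferon response genes do. The gamma-interferon activated site TTCNNNGAA is in 9.55% of all genes' windows and in no window of the 7 members. The stretches around the 3 matches are shown because they hold every match found in the family, and nothing about the differences between the libraries is drawn from them. They are given 5′ to 3′ on the gene's strand from RefSeq, build GRCm38.p6, with the matched letters in capitals; in Slfn9 and Slfn8 the match is on the opposite strand. They are chr11:82951907-82951996 (plus strand), chr11:82991831-82991915 (minus strand) and chr11:83020811-83020898 (minus strand).
Slfn5: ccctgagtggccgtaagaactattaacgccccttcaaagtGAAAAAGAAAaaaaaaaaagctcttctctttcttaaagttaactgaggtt
Slfn9: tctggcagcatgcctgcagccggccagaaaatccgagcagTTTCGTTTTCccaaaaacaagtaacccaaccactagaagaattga
Slfn8: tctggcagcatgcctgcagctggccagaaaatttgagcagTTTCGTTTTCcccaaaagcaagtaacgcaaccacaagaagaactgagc
The Slfn9 and Slfn8 stretches carry the same 10 letters, starting at -45 and -48 relative to their RefSeq starts, while the Slfn5 match starts at -155. A second RefSeq start of Slfn8 places its match at -136. A match is a description of letters and does not show that a factor binds there.

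After filters 14760 control cells (median 5321.5 UMIs) and 12645 cells of the MYC library (median 6014) were kept, and 97 barcodes occurred in both libraries. Ptprc, the leukocyte surface phosphatase that marks hematopoietic cells, had a UMI in 74.7% of cells in the control library and 71.7% in the other, and the stromal collagen gene Col1a1 in 0.678% and 0.427%. The added MYC feature drew 0 UMIs in the control, where its level could be at most 0.0308 per 1000000 UMIs (CPM), and 295 UMIs (2.87 CPM) in the MYC library. These 295 UMIs lay in 273 of the 12645 cells (2.16%). Cells were grouped into classes by markers, without using any Schlafen gene in the clustering, and 14 classes had at least 50 cells in each library. S100a8, an abundant neutrophil transcript that other cells can carry as free RNA, had a UMI in all 392 control and all 156 T or NK cells of the MYC library. Levels below are UMIs of a gene per 1000000 UMIs of a class (CPM), and brackets hold exact Poisson intervals at 95%, which cover counting error only.

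Slfn1, Slfn2 and Slfn4 had their highest levels in neutrophils. In mature control neutrophils Slfn2 stood at 874 CPM [855 to 894], Slfn1 at 626 [610 to 643] and Slfn4 at 576 [560 to 592], and in the MYC library at 653 [635 to 670], 465 [450 to 480] and 384 [371 to 398]. In both libraries the mature neutrophil was the class with the highest level of each of the 3 genes and the immature neutrophil the second, with intervals that did not overlap. Of the 2464 mature control neutrophils 88.4% had a Slfn2 UMI, 79.8% a Slfn1 UMI and 67.7% a Slfn4 UMI, at a median depth of 3411 UMIs. Of the 1771 in the MYC library the shares were 87.0%, 77.9% and 68.0%, at 4655 UMIs. Thinned to 1000 UMIs per cell, which left out 66 and 18 shallower cells, these shares were 57.0%, 44.8% and 35.7% in the control and 46.8%, 35.0% and 27.7% in the MYC library. The thinned shares were lower in the MYC library for all 3 genes, as were the CPM values.

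**Figure D1:**
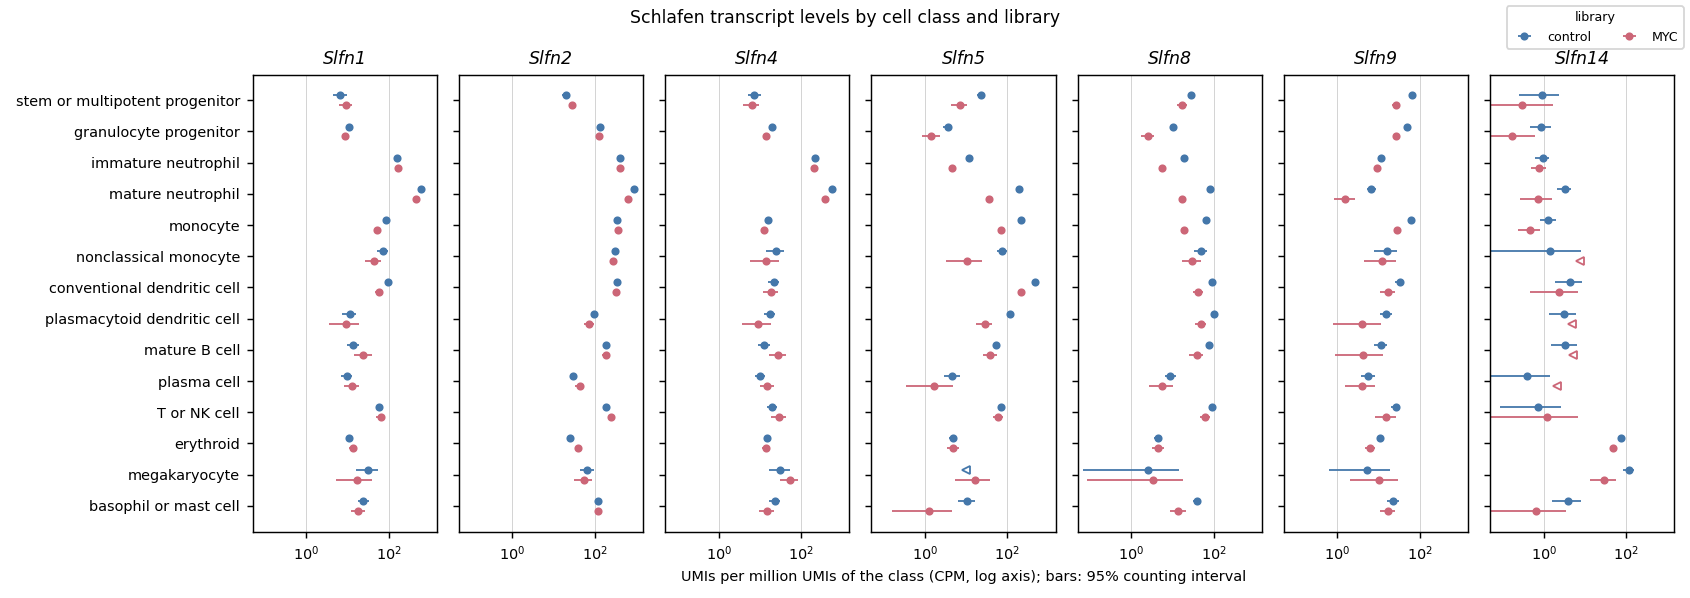
Level of each Schlafen gene (CPM of the class, log axis) in every named class of at least 50 cells per library, with points for the control and the MYC library and lines for exact Poisson intervals at 95%; open triangles mark the upper end of the interval where a class held 0 UMIs. Slfn1, Slfn2 and Slfn4 peak in mature neutrophils, Slfn5 in conventional dendritic cells at 479 and 217 CPM, and Slfn14 in erythroid cells and megakaryocytes.

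Slfn2 was the most widely spread member. After the neutrophils came control monocytes at 353 CPM, conventional dendritic cells at 338 and nonclassical monocytes at 318, whose intervals overlapped from each to the next, then T or NK cells at 189 and mature B cells at 184, which also overlapped. Stem or multipotent progenitors were the lowest class, at 19.5 CPM in the control against 28.6 in the MYC library. In granulocyte progenitors Slfn2 stood at 132 and 130.1 CPM (log2 ratio of the MYC library over the control -0.02, but 0.62 with each library clustered on its own). An estimate of how many UMIs free neutrophil RNA would give, scaled by the S100a8 and S100a9 UMIs of each class, came to 5.62% of Slfn2 UMIs in control monocytes and 5.44% in those of the MYC library. The same estimate was 71.0% and 73.0% in erythroid cells and 57.8% and 62.8% in plasma cells, so most of the Slfn2 signal of those classes was within that estimate. The estimate is rough: it exceeded the counted UMIs in several thin sums, for Slfn1 and Slfn4 at 107% and 110.03% in control stem or multipotent progenitors and at 192% and 204% in plasmacytoid dendritic cells of the MYC library, and for Slfn1 and Slfn2 at 216% and 145% in megakaryocytes of the MYC library. Levels with this RNA taken off can therefore be too low.

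Slfn1 and Slfn4 differed most outside neutrophils. Slfn1 had 89.1 CPM in control monocytes, 98.4 in conventional dendritic cells, 72.0 in nonclassical monocytes and 58.2 in T or NK cells, levels whose intervals overlapped from each class to the next in order. Neutrophil RNA would account for 10.7% of the Slfn1 UMIs of control monocytes and 8.84% of those of control conventional dendritic cells by the estimate. Slfn4 had 15.8 CPM in control monocytes and 12.4 in those of the MYC library, of which the estimate gave 67.9% and 79.4%. Among named classes outside the neutrophil lineage it reached at most 31.6 CPM in the control against 53.4 in the MYC library, both in megakaryocytes, on 12 and 16 UMIs, of which the estimate gave 85.8% and 72.0%. The unnamed cluster 14 had 207 and 159 CPM of Slfn4 and the unnamed cluster 22 had 113 and 58.1. In T or NK cells 8.42% of control cells had a Slfn4 UMI, against 67.7% of mature neutrophils, at median depths of 6240.5 and 3411 UMIs, and the estimate gave 77.2% of the Slfn4 UMIs of control T or NK cells.

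Slfn1, Slfn2, Slfn4, Slfn5 and Slfn8 were higher in mature neutrophils than in granulocyte progenitors, and Slfn9 was lower. In the control the ratio of mature neutrophils to progenitors was 57.0 [48.8 to 66.9] for Slfn1, 55.3 [42.2 to 73.9] for Slfn5, 29.3 [26.0 to 33.0] for Slfn4, 7.99 [6.70 to 9.58] for Slfn8 and 6.62 [6.30 to 6.96] for Slfn2, with exact conditional binomial intervals. In the MYC library the ratios were 51.9 for Slfn1, 25 for Slfn5, 27.8 for Slfn4, 6.84 for Slfn8 and 5.02 for Slfn2. Slfn9 was 7.18-fold higher in progenitors than in mature neutrophils in the control and 17.1-fold higher in the MYC library. The genes differed in where along the stages they stood out. Slfn4 and Slfn1 were already well above progenitors in immature neutrophils, 11-fold and 14.5-fold in the control, whereas Slfn5 was 3.29-fold above progenitors there and a further 16.8-fold higher in mature neutrophils.

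**Figure D2:**
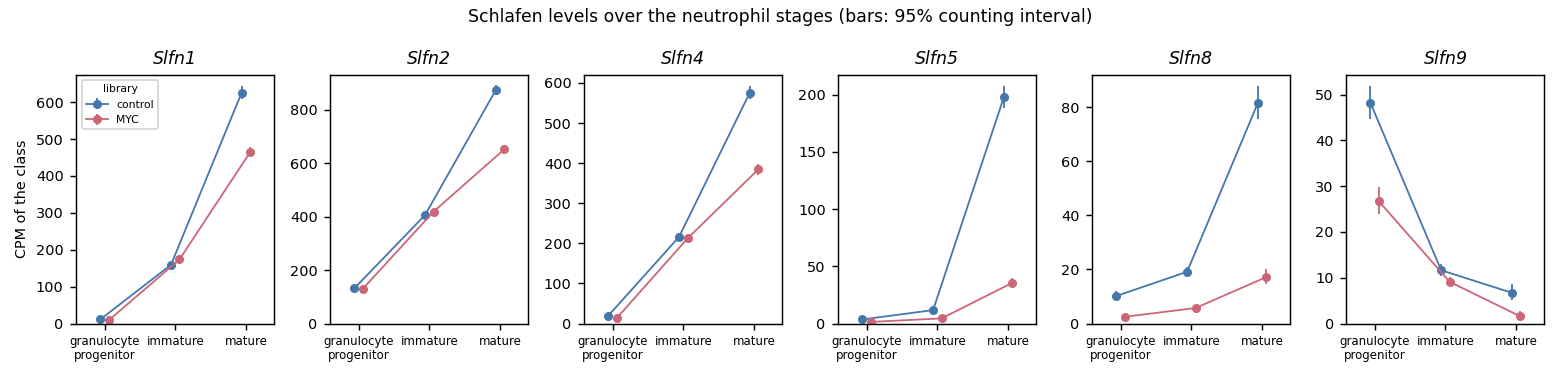
Level of Slfn1, Slfn2, Slfn4, Slfn5, Slfn8 and Slfn9 (CPM, linear axes that differ between genes) in granulocyte progenitors, immature neutrophils and mature neutrophils of each library, with exact Poisson intervals at 95%; lines join the stages of 1 library. Slfn1, Slfn2, Slfn4, Slfn5 and Slfn8 stand highest in the mature stage, while Slfn9 goes from 48.2 to 6.71 CPM in the control and from 26.7 to 1.56 in the MYC library.

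Slfn5 was a gene of dendritic cells, monocytes and mature neutrophils. Among the named classes conventional dendritic cells stood highest, at 479 CPM [448 to 511] in the control and 217 [193 to 244] in the MYC library. The unnamed cells are left out of this order. Control monocytes followed at 213 CPM and mature neutrophils at 198, with overlapping intervals, and then plasmacytoid dendritic cells at 119. In the MYC library monocytes stood second at 70.4 CPM, and their interval overlapped that of T or NK cells at 59.7, and mature neutrophils stood after mature B cells, at 35.6 and 38.7 CPM with overlapping intervals. A Slfn5 UMI was found in 24.7% of mature control neutrophils and in 8.19% of those of the MYC library, and in 56.5% and 37.6% of monocytes. Thinned to 1000 UMIs, the shares were 13.1% and 3.08% in mature neutrophils and 20.7% and 8.11% in monocytes. For comparison, granulocyte progenitors had a Slfn5 UMI in 5.24% and 2.0% of cells without thinning, at median depths of 17593 and 17848 UMIs. No transcript was counted for the overlapping antisense gene Slfn5os, with 0 UMIs in both libraries.

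Within the monocytes Slfn5 separated the 2 clusters. Cluster 9, led by Fn1, S100a4, Vcan and Ccr2, had 576 CPM in the control against 226 in the MYC library, and cluster 12, with F13a1, Nrg1 and Klf4 among its leading genes, had 33.6 and 14.9. The ratio of cluster 9 to cluster 12 was 17.1 [15.4 to 19.1] in the control and 15.2 [13.4 to 17.4] in the MYC library. Slfn8 differed less between these clusters, by 2.95-fold and 2.50-fold. Slfn9 went the other way, with 46.9 and 10.9 CPM in cluster 9 against 68.6 and 34.1 in cluster 12.

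Among the control classes Slfn8 was spread more evenly. Its 6 highest control classes lay between 64.2 and 104 CPM: plasmacytoid dendritic cells, conventional dendritic cells, T or NK cells, mature neutrophils, mature B cells and monocytes, each with an interval that overlapped that of the next. It had 28.7 CPM in stem or multipotent progenitors, 10.2 in granulocyte progenitors and 4.43 in erythroid cells of the control. In the MYC library T or NK cells had 63.2 CPM, plasmacytoid dendritic cells 49.1 and conventional ones 43.0. Monocytes had 19.6 there and mature neutrophils 17.2. Of T or NK cells 42.9% in the control against 26.3% in the MYC library had a Slfn8 UMI, at median depths of 6240.5 and 4357.5 UMIs. Neutrophil RNA gave by the estimate 2.05% of the Slfn8 UMIs of control T or NK cells and 1.09% of those of the MYC library.

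Slfn9, the close copy of Slfn8 in coding sequence, had another pattern. It stood highest in control stem or multipotent progenitors, at 65.9 CPM [58.5 to 74.0], with monocytes next at 61.4 in an overlapping interval and granulocyte progenitors at 48.2. In the MYC library monocytes had 28.0 CPM, stem or multipotent progenitors 26.8 and granulocyte progenitors 26.7, with overlapping intervals. A Slfn9 UMI was found in 56.0% of control stem or multipotent progenitors, at a median of 20934 UMIs, and in 32.0% of those of the MYC library, at 14759 UMIs. In mature neutrophils the shares were 1.70% and 0.734%. Macrophages, with 617 cells in the MYC library and 24 in the control, were not compared between libraries; in the MYC library they had 34.9 CPM of Slfn9, 53.9 of Slfn8, 338 of Slfn2 and 9.03 of Slfn5.

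Slfn14 was highest in 2 classes, with 77.2 CPM in control erythroid cells and 48.7 in those of the MYC library, and 116 and 30.03 in megakaryocytes. Every other named class of at least 50 cells per library was at 4.26 CPM or less in the control and 2.30 or less in the MYC library. The unnamed cells were above these limits, with 39 Slfn14 UMIs among 2455375 in the control and 33 among 2605050 in the MYC library. The megakaryocyte values rest on 44 UMIs in 8 of 63 control cells, 14 of them in a single cell, and on 9 UMIs in 5 of 60 cells. A Slfn14 UMI was found in 36.5% and 23.4% of erythroid cells and in 1.73% and 0.676% of monocytes, classes with median depths of 10697 and 8032 and of 11522 and 13623 UMIs. Within the erythroid class it followed the stage. The early cluster 24, led by early erythroid genes, had 0.578 CPM in the control against 1.29 in the MYC library on 3 and 4 UMIs. Cluster 11, led by Hemgn, Tspan33 and the membrane skeleton gene Sptb, had 21.9 and 26.1, and the late cluster 4, led by Tmcc2, Xpo7 and Bpgm, had 569 and 383. Slfn14 was itself among the 10 leading genes of cluster 4, though it took no part in forming the clusters.

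The profiles of the members over the classes were alike to different degrees. Over 28 sums, 14 classes in each of 2 libraries, the Pearson correlation of log2(CPM + 1) was 0.86 between Slfn1 and Slfn2, 0.83 between Slfn1 and Slfn4 and 0.84 between Slfn5 and Slfn8, but 0.64 between Slfn2 and Slfn4, near the 0.55 between Slfn2 and Slfn5. It was 0.26 between Slfn8 and Slfn9 and -0.41 between Slfn4 and Slfn9. Sums of a library share its depth and free RNA, so these are descriptions with no test. Among 9569 genes that reach 20 CPM in at least 1 sum, the most alike to Slfn4 were the protease genes Mmp9 (0.97), Mmp25 (0.96) and Mmp8 (0.96), and to Slfn1 the exchange factor gene Rasgrp4 (0.92), Mmp8 (0.89) and S100a6 (0.88). Slfn2 was most like AB124611 (0.95), Gmip (0.91) and Pik3r5 (0.90). Slfn5 was most like Kif1c (0.86), Parp14 (0.84) and Ifi27l2a (0.84), the last 2 known as interferon-induced genes, and Slfn8 like Fam120b (0.92), Lbh (0.90) and Sema4d (0.89). Slfn9 had the weakest neighbours, Cars2 (0.83), Cnnm3 (0.81) and Spast (0.80). Among the genes most like Slfn14 were the red cell genes Ube2o (0.92) and Sptb (0.92).

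Between the libraries, Slfn5, Slfn8 and Slfn9 were lower in the MYC library in most classes compared, Slfn14 was lower past the fold in 2 of 3, and Slfn1, Slfn2 and Slfn4 were within the 1.5-fold limit in most, with exceptions in both directions. A gene was compared in a class where it had at least 50 UMIs over both libraries, and called past the fold at a CPM ratio of 1.5 or more in either direction. Of 98 pairs of a member and a class, 72 had enough UMIs, 32 were past the fold with a lower level in the MYC library, 3 with a higher one and 37 were within it. For 27 of the 32 and 2 of the 3 the counting interval of the ratio left out equality. Slfn5, Slfn8 and Slfn9 together made up 25 of the 32 lower pairs out of 32 compared, and none was past the fold upward. Over the 14 classes between 12.8% and 39.9% of all genes compared were lower past the fold and between 5.72% and 23.4% higher. These 3 genes are set together here by this outcome, and nothing is read from their joint count: the profile of Slfn9 over classes had a correlation of 0.24 with that of Slfn5. Slfn1, Slfn2 and Slfn4 had 5 lower and 3 higher pairs of 37 compared. The 5 lower ones were Slfn1 in monocytes, nonclassical monocytes and conventional dendritic cells and Slfn4 in plasmacytoid dendritic cells and basophils or mast cells. Slfn1 in nonclassical monocytes and both Slfn4 pairs had intervals that held equality. Neutrophil RNA gave by the estimate 87.3% and 204% of the Slfn4 UMIs of plasmacytoid dendritic cells in the control and the MYC library. The shares were 82.2% and 80.8% for Slfn4 in basophils or mast cells and 18.4% and 56.0% for Slfn1 in nonclassical monocytes. The median log2 ratio, MYC library over control, was -1.12 over the pairs of Slfn5, Slfn8 and Slfn9. It was -0.03 over those of Slfn1, Slfn2 and Slfn4, which lay on both sides of 0. Because the genes were set together by outcome, nothing is read from the difference between these medians.

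**Figure D3:**
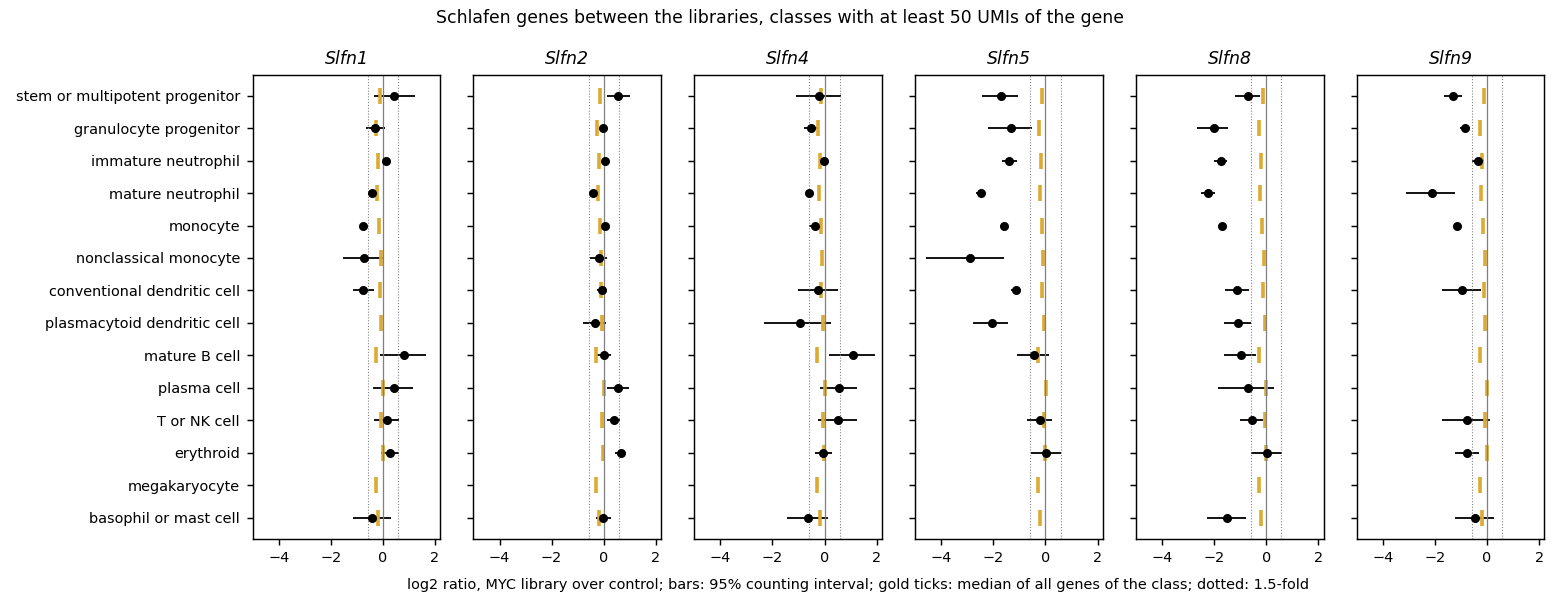
Log2 ratio of CPM, MYC library over control, for Slfn1, Slfn2, Slfn4, Slfn5, Slfn8 and Slfn9 in every class where the gene had at least 50 UMIs, with exact conditional binomial intervals at 95%; dotted lines mark the 1.5-fold limits and gold ticks the median of all genes of the class. Slfn5, Slfn8 and Slfn9 lie mostly left of the lower limit, while Slfn1, Slfn2 and Slfn4 lie around 0.

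Read against all genes compared in the same class, the counts past the fold were as follows. In monocytes 4 of 6 members were lower and none higher, where 15.9% of all genes were lower and 8.26% higher. The neutrophil stages had 3 of 6 members lower in the mature one, 2 of 7 in the immature one and 3 of 6 in granulocyte progenitors, and none higher, beside 23.5%, 16.8% and 23.5% of genes lower and 8.77%, 9.19% and 5.72% higher. In stem or multipotent progenitors 3 of 6 were lower and none higher, beside 12.8% and 6% of genes. In conventional dendritic cells 4 of 6 were lower and none higher, beside 22% and 15.9%, and in plasmacytoid dendritic cells 3 of 4 and none, beside 20.4% and 19.2%. Nonclassical monocytes had 2 of 3 lower and none higher, beside 18.1% and 14.1%, and basophils or mast cells 2 of 5 and none, beside 21.5% and 9.01%. The only member compared in megakaryocytes was lower, where 39.9% of genes were lower and 23.4% higher. In T or NK cells 1 of 6 was lower and none higher, beside 14.3% and 10.9%, and in plasma cells 1 of 4 and none, beside 17.4% and 18.8%. Mature B cells had 1 of 5 lower and 2 higher, beside 27.3% and 7.55%, and erythroid cells 2 of 7 lower and 1 higher, beside 14.1% and 16%. The median log2 ratio of all genes lay between -0.28 and 0.00 in the 14 classes.

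In monocytes Slfn5 had 213 CPM in the control against 70.4 in the MYC library, which is a log2 ratio of -1.60 [-1.68 to -1.51], and 1.15% of all genes had a lower ratio. Slfn8 went from 64.2 to 19.6 CPM (-1.71 [-1.87 to -1.56]) and Slfn9 from 61.4 to 28.0 (-1.13 [-1.27 to -1.0]). Slfn1 was lower by less, 89.1 against 52.8 CPM (-0.76 [-0.86 to -0.65], and -0.31 with each library clustered on its own), and Slfn2 stood at 353 and 362 (0.04 [-0.01 to 0.08]). Slfn5, Slfn8 and Slfn9 were lower within both monocyte clusters, which held similar numbers of control and MYC library cells or more of the latter (595 and 627 in cluster 9, 622 and 1001 in cluster 12). Slfn5 had log2 ratios of -1.35 and -1.18 in these clusters, Slfn8 of -1.71 and -1.47, and Slfn9 of -2.10 and -1.01.

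In mature neutrophils Slfn5 had 198 CPM in the control against 35.6 in the MYC library, which is a log2 ratio of -2.47 [-2.66 to -2.30], and 0.269% of all genes there had a lower ratio. Slfn8 stood at 81.5 and 17.2 CPM (-2.25 [-2.52 to -1.98]), and Slfn9, with 58 and 13 UMIs, at 6.71 and 1.56 CPM (-2.10 [-3.10 to -1.22]). The highest values over the alternatives were -1.45 for Slfn5 and -1.61 for Slfn8, as means of the ratios within clusters, and -1.21 for Slfn9, at a clustering resolution of 0.5. The 3 abundant members were lower by smaller factors, with log2 ratios of -0.43 for Slfn1, -0.42 for Slfn2 and -0.58 for Slfn4, all short of the 1.5-fold limit and below the median of all genes, -0.22. Different clusters hold most of this class in the 2 libraries: clusters 0 and 1 had 1457 and 876 control cells against 166 and 104 in the MYC library, and cluster 2 had 131 against 1501. Within clusters Slfn5 had log2 ratios of -0.37 [-0.79 to 0.01] in cluster 0, -2.09 [-2.64 to -1.58] in cluster 1 and -1.88 [-2.33 to -1.41] in cluster 2. The level of Slfn5 in cluster 0 was 121 CPM in the control against 93.0 in the MYC library, in cluster 1 389 and 91.5, and in cluster 2 103 and 28.0. Slfn8 was lower in each of the 3 clusters, with log2 ratios of -1.11, -2.17 and -1.56. Within clusters 0, 1 and 2 the ratios were -0.11, -0.16 and -0.05 for Slfn1, -0.19, -0.32 and -0.28 for Slfn2 and -0.15, -0.34 and -0.34 for Slfn4, and each of the 3 Slfn1 intervals held equality. Slfn9 in cluster 0 had 34 and 4 UMIs and a log2 ratio of 0.09 [-1.87 to 1.57], and cluster 1 had 22 and 0 UMIs and cluster 2 had 2 and 9.

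**Figure D4:**
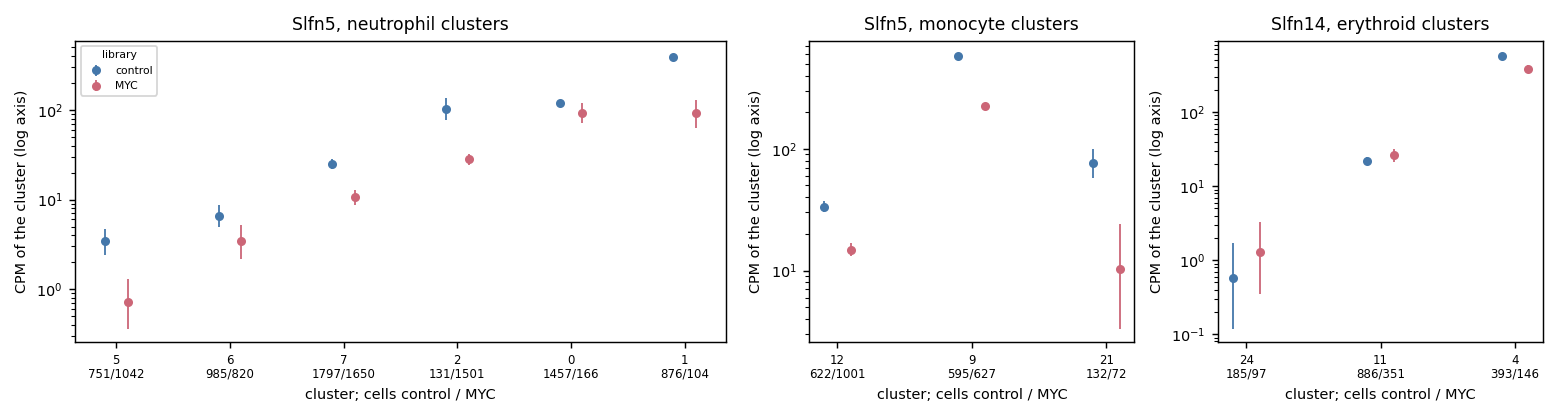
Level (CPM, log axis) of Slfn5 in the immature and mature neutrophil clusters and in the monocyte and nonclassical monocyte clusters, and of Slfn14 in the erythroid clusters, by library with exact Poisson intervals at 95%; the numbers of control and MYC library cells stand under each cluster number. Slfn5 is lower in the MYC library in each cluster shown, with intervals that overlap in clusters 0 and 6, and Slfn14 is lower in cluster 4 but not in clusters 11 and 24.

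Earlier in the lineage the ratios of whole classes had the same sign for Slfn5, Slfn8 and Slfn9. Immature neutrophils had Slfn5 at 11.7 and 4.51 CPM (-1.38 [-1.67 to -1.09]), Slfn8 at 19.1 and 5.74 (-1.74 [-1.99 to -1.49]) and Slfn9 at 11.6 and 9.11 (-0.35 [-0.59 to -0.12]). The Slfn5 ratio was short of the limit, at -0.47, in cells with at least 1000 UMIs and 500 genes, and the Slfn9 ratio lay between -1.04, with each library clustered on its own, and -0.17. Within cluster 5 of immature neutrophils Slfn9 was at -0.63 [-0.89 to -0.38] on 273 and 238 UMIs. Cluster 7 was at -0.68 [-1.45 to 0.07] on 40 and 26 UMIs, and cluster 6 at 0.69 [-0.24 to 1.65] on 18 and 25 UMIs. In granulocyte progenitors Slfn8 stood at 10.2 and 2.51 CPM (-2.02) and Slfn9 at 48.2 and 26.7 (-0.85), and Slfn5 at 3.58 and 1.42 on 54 and 17 UMIs (-1.33). Slfn2 was at 406 and 419 CPM in immature neutrophils, Slfn1 at 159 and 174 and Slfn4 at 216 and 212, with log2 ratios of 0.04, 0.12 and -0.03. Over the alternatives the Slfn1 ratio lay between 0.04 and 0.87, highest and past the limit in cells with at least 1000 UMIs and 500 genes, and the Slfn4 ratio between -0.10 and 0.57, highest with each library clustered on its own. Within clusters 5, 6 and 7 of this stage Slfn1 had log2 ratios of 0.78, 0.37 and 0.18.

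In stem or multipotent progenitors, 191 control and 175 cells of the MYC library, Slfn9 had 65.9 and 26.8 CPM (-1.30 [-1.66 to -0.95]), Slfn5 22.7 and 6.92 (-1.72 [-2.44 to -1.05]) and Slfn8 28.7 and 17.4 (-0.72 [-1.19 to -0.26]). The Slfn8 ratio was within the limit with doublets kept (-0.55) and near 0 as a mean over cells of each cell's CPM (-0.09). Slfn2 was higher there, 19.5 against 28.6 CPM (0.55 [0.11 to 0.99]), within the 1.5-fold limit. The free neutrophil RNA estimate gave 76.5% of the Slfn2 UMIs of this class in the control against 27.0% in the MYC library. With that RNA taken off, Slfn2 stood at 4.75 and 21.3 CPM, a log2 ratio of 2.16 that rests on an estimate which, for Slfn1 and Slfn4, came to more than the counted UMIs of these control cells. The ratio lay between 0.11 and 2.16 over the alternatives run.

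Among dendritic cells Slfn5 stood at 479 and 217 CPM in the conventional ones (-1.14 [-1.34 to -0.95]) and at 119 and 28.4 in the plasmacytoid ones (-2.06 [-2.76 to -1.44]). Slfn8 had 92.6 and 43.0 CPM (-1.11) in the first and 104 and 49.1 (-1.08) in the second. With each library clustered on its own the plasmacytoid ratios were -3.14 for Slfn8 and -3.53 for Slfn5. Slfn1 was also lower in conventional dendritic cells, 98.4 against 58.3 CPM (-0.76 [-1.16 to -0.36]). Nonclassical monocytes had the lowest Slfn5 ratio of any class compared, 76.4 against 10.3 CPM (-2.89 [-4.58 to -1.58]), on 53 and 5 UMIs, and -4.90 with each library clustered on its own. These classes were small in the MYC library, with 146 conventional and 72 plasmacytoid dendritic cells and 72 nonclassical monocytes.

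Slfn5 and Slfn8 were within the 1.5-fold limit in T or NK cells and in erythroid cells. T or NK cells had Slfn5 at 69.1 and 59.7 CPM (-0.21 [-0.69 to 0.24]) and Slfn8 at 92.3 and 63.2 (-0.55 [-1.0 to -0.11]), the latter at -0.65, past the limit, in cells under 5% mitochondrial UMIs. In erythroid cells the 2 genes had log2 ratios of 0.03 each, from 4.70 and 4.79 CPM for Slfn5 and 4.43 and 4.52 for Slfn8, of which neutrophil RNA gave by the estimate 38.0% and 13.6% for Slfn5 and 27.0% and 11.2% for Slfn8. Over the alternatives run the erythroid ratio lay between -0.86 and 0.55 for Slfn5 and between -0.80 and 0.36 for Slfn8, lowest at a clustering resolution of 2 and highest with neutrophil RNA taken off. Slfn9 was lower in erythroid cells as a class, 10.5 against 6.25 CPM (-0.75 [-1.24 to -0.30]), but a mean over cells of each cell's CPM gave 0.38. Within cluster 11 it was at -0.09 [-0.63 to 0.42] on 166 and 40 UMIs. Cluster 4 was at -0.18 on 12 and 3 UMIs, and the early cluster 24 had 10.6 and 1.29 CPM on 55 and 4. In T or NK cells Slfn9 stood at 26.2 and 15.5 CPM (-0.76 [-1.73 to 0.11]) on 72 and 13 UMIs. That ratio is past the limit, with an interval that holds equality. Mature B cells had Slfn8 at 75.8 and 38.7 CPM (-0.97 [-1.60 to -0.38]) and Slfn5 at 52.8 and 38.7 (-0.45 [-1.10 to 0.15]), a ratio that lay between -1.32, in cells under 5% mitochondrial UMIs, and -0.17, with another scaling.

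The 3 pairs with a higher level in the MYC library were Slfn2 in erythroid cells and Slfn4 and Slfn1 in mature B cells. Slfn2 had 25.3 and 39.7 CPM in erythroid cells (0.65 [0.44 to 0.85]), with the neutrophil RNA share given above, and the ratio was 0.06 with doublets kept and 0.03 at a clustering resolution of 2. Slfn4 had 12.9 and 27.3 CPM in mature B cells (1.08 [0.19 to 1.92]) on 35 and 19 UMIs, 8 of the 19 in a single cell, and the ratio was -0.36 with doublets kept. Slfn1 had 14.0 and 24.4 CPM there (0.80 [-0.12 to 1.66]) on 38 and 17 UMIs, with an interval that holds equality, and the ratio was -0.18 with doublets kept. By the estimate neutrophil RNA gave between 36.1% and 44.9% of the Slfn1 and Slfn4 UMIs of mature B cells in the 2 libraries.

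For Slfn14 the erythroid class as a whole was lower in the MYC library, 77.2 against 48.7 CPM (-0.66 [-0.83 to -0.50]), and the clusters differed. The late cluster 4 was lower (-0.57 [-0.77 to -0.38]) and cluster 11 was not (0.25 [-0.09 to 0.59]). The equally weighted mean of the log2 ratios within the 3 erythroid clusters was 0.28, a value to which cluster 24 contributes with 3 and 4 UMIs. Late cells made up 393 of 1464 control erythroid cells and 146 of 594 in the MYC library. The class value is weighted by UMIs. Of these, cluster 4 held 2436202 and cluster 11 held 14481515 of 22110090 in the control, against 691906 and 3713814 of 7514563 in the MYC library. The remaining UMIs, a larger part of the class in the MYC library, were those of cluster 24. How far this make-up bears on the class ratio was not tested. In megakaryocytes the ratio was -1.95 [-3.17 to -0.89] on the few UMIs given above, and it was 0.26 when each library was clustered on its own.

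Slfn3, which shares most of its coding sequence with Slfn4 and is not among the 7, was low, at 5.15 and 5.37 CPM over all cells. In immature neutrophils it had 4.82 CPM in the control against 8.10 in the MYC library (0.75 [0.45 to 1.06]), and it went the other way in monocytes, 8.34 against 5.30 (-0.66 [-1.01 to -0.31]), and in erythroid cells, 6.83 against 3.59 (-0.93 [-1.57 to -0.33]). Of its 60-base words at the 3′ end 9.20% also occur in transcripts of Slfn4 outside the Slfn4 3′ end, none of whose words occurs in Slfn3. The Schlafen-like gene Slfnl1 had 1 and 2 UMIs.

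The genes of the interferon response and of its signalling chain were set beside the family from a list of 35 response genes, 33 of them among the features, and 16 receptors and regulators. In monocytes 31 of 33 response genes compared were lower past the fold and none higher, with a median log2 ratio of -1.61 against -0.15 for all genes. Mature neutrophils had 27 of 31 lower (median -1.27), conventional dendritic cells 26 of 29 (-1.52), plasmacytoid dendritic cells 15 of 17 (-1.63) and erythroid cells 20 of 29 with 2 higher (-1.14). Of all genes 15.9% were lower in monocytes, 23.5% in mature neutrophils, 22% in conventional and 20.4% in plasmacytoid dendritic cells and 14.1% in erythroid cells, where 16% were higher. In T or NK cells 3 of 24 were lower and 3 higher, with a median of 0.06, beside 14.3% and 10.9% of all genes, and in stem or multipotent progenitors 5 of 24 were lower and 2 higher (-0.23). Of the 16 receptors and regulators, 6 were lower and 1 higher in monocytes and 8 lower and none higher in mature neutrophils, where 8.26% and 8.77% of all genes were higher. Oasl2, an antiviral gene, had 309 CPM in mature control neutrophils and 90.5 in those of the MYC library (-1.77). In monocytes Trim30a had a log2 ratio of -1.28 and Bst2 of -0.08; Bst2 is also a marker of plasmacytoid dendritic cells. Slfn5, Slfn8 and Slfn9 had ratios of -1.60, -1.71 and -1.13 in the same monocytes.

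Erythroid cells had 20 of 29 response genes lower, beside 14.1% of all genes. The 3 most abundant of the list there differed: Rsad2, an antiviral enzyme gene, had 364 and 73.6 CPM (-2.31), Isg15, a ubiquitin-like modifier gene, 204 and 154 (-0.41), and Isg20, an exonuclease gene, 368 and 380.1 (0.05). Slfn5 and Slfn8 had the log2 ratios of 0.03 given above in these cells, with ranges over the alternatives of -0.86 to 0.55 and -0.80 to 0.36. In stem or multipotent progenitors 5 of 24 response genes were lower, beside 12.8% of all genes, and Slfn5 and Slfn9 were lower past the fold, as was Slfn8 except in the 2 alternatives named above. Whether the lower levels of these 3 genes follow the response list within single cells was not tested.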

How the data were processed

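Marrow cells of 2 libraries, 1 per group, were captured in droplets and their transcript 3′ ends sequenced, according to the labels. The authors' deposited UMI counts per gene and barcode were the starting point; per the file headers they come from Cell Ranger 6.0.0. The submitters' processing notes name Cell Ranger 6.0, Seurat, GRCm38 and mm10. How barcodes were called and how strand was counted are not given in the sources used here. No correction for free RNA was applied to the main values.

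Cells with at least 500 UMIs, at least 200 genes and under 10% mitochondrial UMIs were kept. Scrublet in scanpy 1.11.5 called 701 (4.53%) control cells and 251 (1.95%) cells of the MYC library doublets, which were removed; 13.7% and 11.6% were expected, so doublets remain. Both libraries were clustered together (2000 variable genes without Schlafen and listed interferon genes, 30 principal components, 15 neighbours, Leiden resolution 1), and the 25 clusters were named from markers of 18 types where these allowed. Clusters 14 and 22, of low depth, stayed unnamed (2548 control and 2791 cells of the MYC library). Macrophages (24 control cells) and B progenitors (18 cells of the MYC library) were too few to compare, and T and NK cells shared 1 cluster.

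UMIs were summed per class and library and scaled to CPM of the class. Total depth was 119905786 and 102740700 kept UMIs. Intervals are exact Poisson for levels and exact conditional binomial for ratios; they cover counting error only. No test was run, since each group has 1 library. All 7 members are named whatever their value, the 3 genes most alike to each by Pearson correlation, and listed interferon response genes from the 3 most abundant of a class. Some genes that these rules picked are not reported here. The members and lists were chosen with earlier results of these data known. On simulated monocyte counts of known 2-fold difference, the scripts were tested for recovery of the ratios. Alternatives were another scaling, a mean over cells, stricter cell filters, doublets kept, other resolutions, separate clustering, marker-only classes, ratios within clusters, leaving out the richest cell, neutrophil RNA taken off, and no minimum of UMIs.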

Additional observations from a re-analysis of the deposited data

How the results depend on the processing

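Of the 32 pairs of a Schlafen gene and a class that were at least 1.5-fold lower in the MYC library, between 21 and 32 remained past the fold under 12 alternatives run for single pairs (the 21 were of 25 that could still be compared, with each library clustered on its own), and the count of lower pairs lay between 22 and 45 over all 13. Slfn5, Slfn8 and Slfn9 had no pair past the fold upward in any of the 12. The count of higher pairs, 3 in the main analysis, was less stable: 7 with each library clustered on its own, 5 with each cell classified by its markers alone, 0 with doublets kept, 6 with neutrophil RNA taken off outside the neutrophil lineage and 6 with no minimum of UMIs. Among ratios past the fold whose counting interval left out equality, those that changed sign were Slfn4 in mature B cells (log2 -0.36 with doublets kept and -0.037 as a mean over cells), Slfn9 in erythroid cells (0.38 as a mean over cells), Slfn14 in erythroid cells (0.28 within clusters) and Slfn14 in megakaryocytes (0.26 with each library clustered on its own); the cause was not tested. Ratios past the fold with an interval that holds equality, or ratios within the fold, also changed sign, among them Slfn1 in mature B cells (-0.18 with doublets kept), Slfn4 in plasmacytoid dendritic cells (0.09 with each cell classified by its markers alone), Slfn1 in plasma cells (-2.74 with neutrophil RNA taken off) and Slfn5 and Slfn8 in erythroid cells (-0.86 and -0.80 at a clustering resolution of 2). No paired analysis was possible because each group has 1 library and the replicate number only names it. Limits are the single library per group, doublets and free RNA left in, and depth: 26 of 98 pairs had under 50 UMIs and were not read.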
